A study of Mus musculus with 2 samples.

Results

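Sense intronic contigs are stretches of continuous read coverage that lie inside the introns of annotated genes, on the strand from which the gene is transcribed. They were taken from the authors' contig table on the mm9 assembly, as contigs of 1000 bases or more on chromosomes 1 to 19 that overlapped an Ensembl 65 gene span on the same strand and no annotated exon on that strand. This rule gave 76955 contigs, out of 818912 in the table and out of 153551 that were autosomal and long enough. All 76955 lay wholly inside the span of a gene, and together they lay in 6925 host genes. The choice rests on position, strand and length. Length is not independent of level, since the median signal is 0.098 with a minimum of 500 bases, 0.135 with 1000 and 0.186 with 2000.

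The RNA came from the cerebellum of adult C57BL/6J mice, an inbred strain, aged 8 weeks. Its 2 libraries, replicates 1 and 2, form a single group, cerebellum, and no condition was compared. Both carry the label pooled male and female, from littermates of mixed sex, and they share 1 donor record, so the labels do not state separate animals. Sequencing was paired and kept the strand of the RNA, which had been depleted of ribosomal RNA and selected for poly(A). The contig table pools both libraries, so a contig has 1 value and no replicate error, and the values are described without tests.

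An intron is copied into RNA together with the exons around it and is then cut out by the spliceosome while the transcript is being made or soon after. Intron reads therefore come from RNA that is still unspliced, from introns kept in a finished transcript, or from other transcripts that start or end inside the intron. Many neuronal genes, among them adhesion molecules, receptors and ion channels, have introns far longer than their exons, and such an intron takes a polymerase a long time to cross. Selection for poly(A) tails favours finished messenger RNA over such intermediates without removing them entirely.

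Reads assigned to annotated genes came to 79771873 estimated fragments in replicate 1 and 80281011 in replicate 2, and all contigs together held 47.9 Gb of aligned bases. Neuronal markers of the tissue were high in both libraries, with 336 and 269 TPM for the granule neuron receptor gene Gabra6 and 1585 and 1349 TPM for the Purkinje neuron gene Pcp2 (TPM is an abundance corrected for transcript length and scaled to the same total in each library). Of 3 forebrain markers, Tbr1 had 0.38 and 0.25 TPM, Camk2a 33.7 and 32.4 TPM and Nrgn 30.6 and 41.8 TPM. The choroid plexus gene Ttr (2086 and 763 TPM) and the blood gene Hbb-bs (289 and 603 TPM) differed more between replicates 1 and 2. The label of pooled sexes went against the X-linked Xist and Y-linked Ddx3y genes, with 45928 and 0 estimated fragments in replicate 1 and 26 and 3662 in replicate 2; the sense intronic contigs exclude both sex chromosomes. The 2 libraries are thus not repeats of the same RNA, and sex and replicate cannot be told apart. On chromosomes 13 to 19 the contigs ended short of the last gene, by 0.866 Mb to 17.8 Mb and by 60.6 Mb in all, although 21058 splice junctions of the same series lay in those stretches. On the other 12 autosomes the contigs reached past the last gene. The 469 genes that start beyond the last contig, 137 of them expressed at 1 RPKM or more (a read density scaled for exon length and library size), cannot hold a contig and were left out of every share of genes below. How reads with several matches in the genome were counted is not given in the sources used here.

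Sense intronic contigs were the most frequent class of long autosomal contigs but were thinly covered. They made up 50.1% of contigs of 1000 bases or more (95% Wilson interval 49.9% to 50.4%, which covers counting error only), against 34.6% that overlapped an exon on their strand, 3.56% that lay only antisense to a gene and 11.7% that lay outside genes. By length they held 217 Mb, or 38.8% of the total, and exonic contigs held 287 Mb, or 51.2%. By aligned bases they held 3.11 Gb, or 7.47%, and exonic contigs held 88.0%. Their medians were a length of 1754 bases (quartiles 1270 and 2926), a signal of 0.135 (quartiles 0.096 and 0.200) and 11688 aligned bases (quartiles 6536 and 26352). Signal is the number of aligned bases per kilobase of contig and per megabase of aligned bases in all, so it follows from the aligned bases and the length and is no second measurement. Exonic contigs had a median length of 3267 bases and a median signal of 0.750. Contigs outside genes had a median of 1558 bases and a signal of 0.121, close to the intronic values, and antisense contigs had 1669 bases and 0.135.

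**Figure D1:**
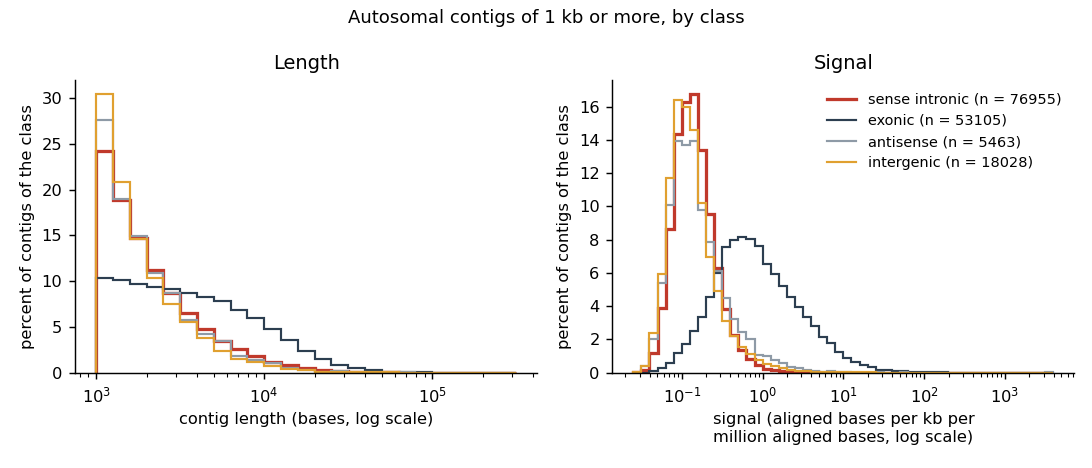
Distributions of contig length (left, bases, log scale) and signal (right, aligned bases per kilobase of contig and per megabase aligned, log scale) for the 4 classes of autosomal contigs of 1 kb or more, as the percent of contigs of each class. The signal of sense intronic contigs (red, median 0.135) lies over that of antisense (0.135) and intergenic contigs (0.121) and to the left of exonic contigs (median 0.750).

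At the median, a base of a sense intronic contig was covered 6.52 times over both libraries together, against 36.3 times for exonic contigs. Only 451 sense intronic contigs (0.586%) reached a signal of 1, against 21554 exonic contigs (40.6%). The longest measured 119832 bases and 2484 were 10 kb or longer, of which 37 reached 50 kb. Longer contigs had the higher signal, with a Spearman rho of 0.57 across the 76955 contigs; these share libraries and depth. Neighbouring contigs of the same intron were separated by a median of 318 bases over 57520 pairs, and 55.1% of the gaps were under 500 bases. The number of contigs in a gene counts pieces of coverage, not transcripts.

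The length minimum kept 21.9% of the 350707 autosomal contigs of any length that met the other conditions, with 81.8% of their aligned bases. The 933 contigs of 1000 to 1009 bases had a median signal of 0.091 and 4419 aligned bases, and the 911 just below the minimum, at 990 to 999 bases, had 0.092 and 4416. The 5 nearest above it lay in Cspp1, Prex2, Pms1, Nbeal1 and Erbb4, with signals from 0.047 to 0.135. The 5 nearest below it lay in Lipt1, Epm2a, Utrn, Fig4 and Afg1l, with signals from 0.079 to 0.103.

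At the places of the sense intronic contigs, which were chosen on the gene's strand, little lay in contigs of the opposite strand. Of the contigs, 83.1% had no contig on the opposite strand at the same place. Over all 76955, opposite contigs held 2.91% as many aligned bases as the sense intronic contigs. The authors' irreproducibility value, a fraction given for each contig, was 0 for 76834 of the sense intronic contigs and at most 0.05 for the other 121. The other classes were alike, with 0 for 53093 of 53105 exonic, 5446 of 5463 antisense and 17974 of 18028 intergenic contigs and at most 0.05 for the rest. The median distance to the nearest exon of the same strand was 7017 bases (quartiles 2046 and 20477). Signal hardly differed with that distance, with a median of 0.132 for the 11486 contigs within 1 kb of an exon and 0.136 for the 44392 that lay 5 kb or farther away. The most remote contig lay 436 kb from any exon of its strand.

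Genes that held sense intronic contigs were long. Of 20523 autosomal genes with at least 1000 intronic bases, 6925 (33.7%) were hosts, and of the 8426 expressed at 1 RPKM or more on average over the replicates, 4472 (53.1%) were hosts. Expressed hosts had a median length of 54.7 kb, against 11.9 kb for the 3954 expressed genes without a contig. Their median level was the lower one, at 2.90 RPKM against 4.12 RPKM (2.84 and 2.91 RPKM in the 2 replicates for hosts, 4.04 and 4.19 RPKM for genes without a contig). Intron coverage that runs on into an exon is exonic under the rule, so a gene without a sense intronic contig can still have intron coverage. Their longest intron had a median of 17.5 kb, against 3.30 kb in the genes without a contig. Protein-coding genes were 6460 of the hosts (93.3%) and held 97.0% of the contigs, with 116 antisense genes and 61 lincRNA genes among the rest. Where gene spans overlapped, which concerned 624 contigs, the contig was given to the span with the longest overlap, and such assignments are uncertain.

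Expressed genes of 100 kb or more were hosts almost without exception, in 1223 of 1236 (98.9%). Of the 13 others, 6 had their sense intronic contigs assigned to an overlapping gene, and the remaining 7 had contigs that all touched an exon. In Mtcl1, a microtubule-crosslinking protein gene with 9.22 and 8.66 RPKM, exonic contigs covered 99.9% of the span, so almost all of its intron length lay in contigs that touch an exon. In Gabra5, a GABA-A receptor subunit gene with 0.845 and 1.26 RPKM, they covered 3.42%. Hosts of 100 kb or more numbered 1889 in all and held 58065 contigs (75.5%). Below 10 kb, 212 of 6320 genes (3.35%) were hosts.

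**Figure D2:**
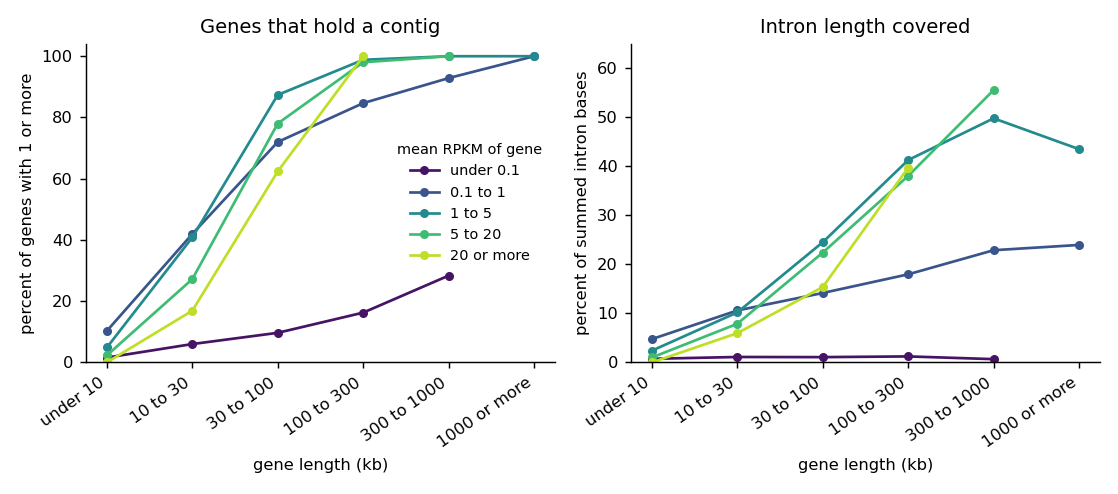
Percent of genes that hold at least 1 sense intronic contig (left) and percent of their summed intron length covered by such contigs (right), by gene length in kb, with a line for each range of mean RPKM. Groups of fewer than 10 genes are not drawn. Among genes of 1 to 5 RPKM the share of hosts is 4.86% under 10 kb and 98.8% at 100 to 300 kb.

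Below 1000 kb, genes under 0.1 RPKM were seldom hosts, and above 1 RPKM the share of hosts differed little in long genes and was lower in short ones. Among genes of 100 to 300 kb, 16.2% of those under 0.1 RPKM were hosts, 84.7% of those at 0.1 to 1 RPKM, 98.8% at 1 to 5 RPKM, 98.0% at 5 to 20 RPKM and 100% of the 26 genes at 20 RPKM or more. Among genes of 10 to 30 kb the share was 41.9% at 0.1 to 1 RPKM, 40.8% at 1 to 5 RPKM, 27.2% at 5 to 20 RPKM and 16.9% at 20 RPKM or more. Coverage that joins an exon contig is not counted, and its part in this fall was not tested. In genes of 300 to 1000 kb, contigs covered 0.657% of the summed intron length under 0.1 RPKM, 22.9% at 0.1 to 1 RPKM, 49.8% at 1 to 5 RPKM, 55.6% at 5 to 20 RPKM and 22.2% in the 4 genes at 20 RPKM or more. Across all 20523 genes they covered 23.1% of it. At least 50% of the intron length was covered in 435 expressed genes of 100 kb or more (35.2%).

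The signal inside the contigs followed the level of the host more than its length. The median over hosts of the mean contig signal was 0.0985 under 0.1 RPKM, 0.112 at 0.1 to 1 RPKM, 0.171 at 1 to 5 RPKM, 0.231 at 5 to 20 RPKM and 0.333 at 20 RPKM or more. Across the 6925 hosts the Spearman rho of mean contig signal was 0.51 with RPKM and 0.16 with gene length. The number of contigs went the other way, with a rho of 0.75 with gene length and 0.11 with RPKM. These genes share both libraries. Hosts under 1 RPKM numbered 2453 (35.4%), of which 431 were under 0.1 RPKM.

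**Figure D3:**
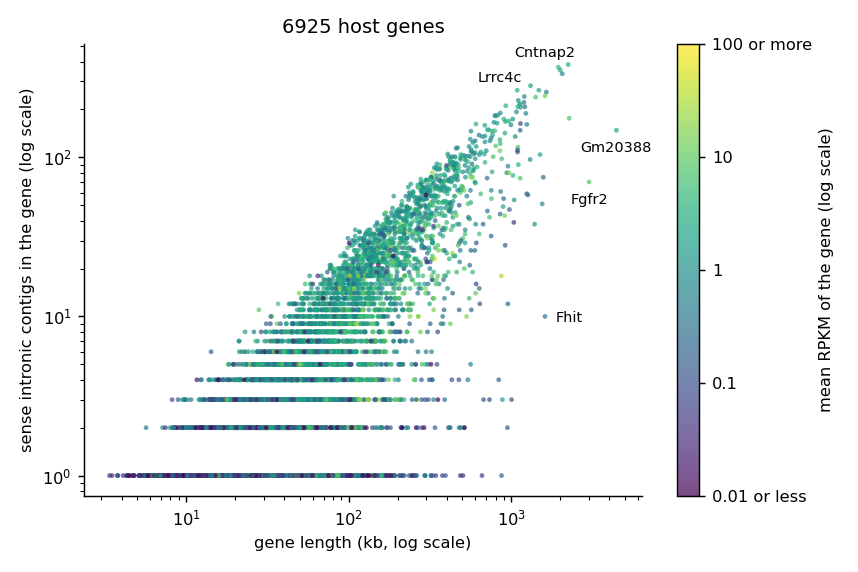
Number of sense intronic contigs in each of the 6925 host genes against gene length in kb (both log scales), coloured by the mean RPKM of the gene (log scale). The number climbs with length up to 383 in Cntnap2, while Fhit (10 contigs), Fgfr2 (70 contigs) and Gm20388 (148 contigs) lie below other genes of their length.

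The 10 genes with the most contigs all spanned more than 1000 kb, and their levels differed widely. Cntnap2, which encodes the neurexin-related adhesion protein Caspr2, held 383 contigs over 1089 kb, or 48.7% of its introns, at 2.28 and 3.20 RPKM (mm9 chromosome 6, 45010060 to 47251368). Dlg2, the gene of the synaptic scaffold PSD-93, held 369 contigs over 53.8% of its introns at 5.37 and 5.07 RPKM. Macrod2, a mono-ADP-ribose hydrolase gene, held 354 contigs at 1.68 and 1.74 RPKM, and Lrp1b, an endocytic receptor gene, held 335 at 0.613 and 0.681 RPKM. Next came Lrrc4c (netrin-G ligand 1) with 282 contigs, the acid-sensing channel gene Asic2 and the scaffold gene Magi2 with 264 each, Csmd1 with 257, the neurexin gene Nrxn3 with 243, at 14.0 and 14.5 RPKM, and Ccser1 with 241. In these 10 genes the median contig signal stayed between 0.121 and 0.195. At the low end, 1771 hosts (25.6%) held 1 contig. The 100 hosts with the most contigs held 15310 of them (19.9%).

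Aligned bases and the length of single contigs were led by other genes than the count. Kcnip4, the gene of a calcium-binding subunit of A-type potassium channels (mm9 chromosome 5, 48780743 to 49915940), held 74 contigs over 854 kb, with 85.8 Mb of aligned bases, the most of any host. Covered length itself was greater in Nrxn3 (1158 kb), Cntnap2, Dlg2 and other genes with many contigs. The longest contig of all, 120 kb at a signal of 2.05, lay in its intron 2 (chromosome 5, 49346701 to 49466532), and a contig of 94.9 kb at a signal of 3.32 lay in its intron 1. Kcnd2, the gene of the A-type channel Kv4.2, held 20 contigs with a median signal of 2.71 (lowest 0.323, highest 5.62) that covered 90.8% of its intron length, the highest share among hosts with 100 kb or more of intron. Pcdh9, a protocadherin gene, followed with 86.5%. The other contigs among the 10 longest lay in Kirrel3 (116 kb and 83.2 kb), Rbfox1 (89.7 kb), Negr1 (88.7 kb), Rora (86.4 kb), Cacna1c (86.2 kb), Kcnd2 (84.0 kb) and Auts2 (83.2 kb). These genes encode an adhesion protein, a splicing regulator, an adhesion protein, a nuclear receptor needed by Purkinje neurons, a calcium channel pore subunit, Kv4.2 and a transcriptional regulator. Their levels were 5.37 and 5.16 RPKM for Kirrel3, 8.28 and 8.62 RPKM for Rbfox1 and 6.35 and 5.96 RPKM for Rora, but only 0.846 and 0.826 RPKM for Cacna1c.

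**Figure D4:**
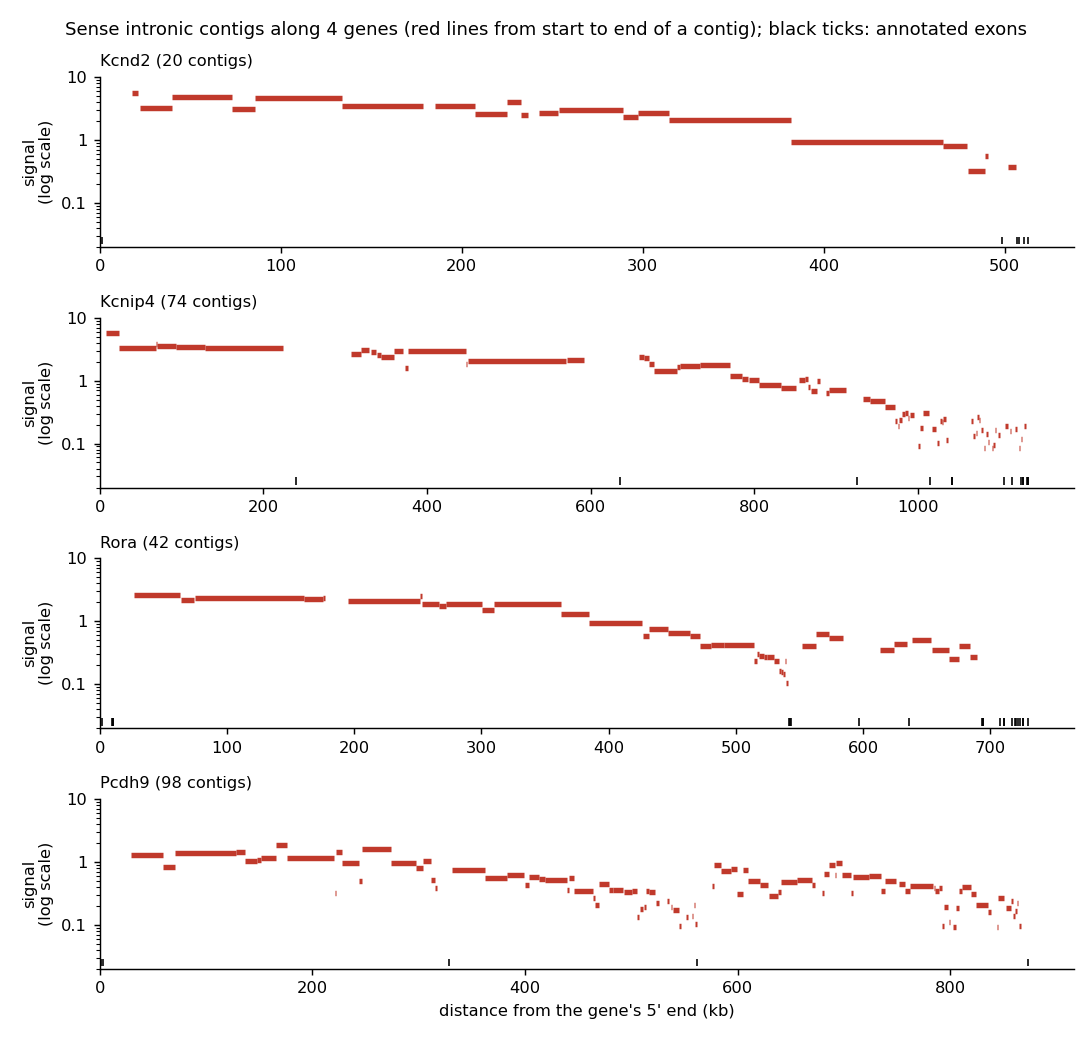
Signal (log scale) of each sense intronic contig along Kcnd2, Kcnip4, Rora and Pcdh9, drawn as a red line from its start to its end, by distance from the 5′ end of the gene in kb. Black ticks mark annotated exons, and blanks hold either no contig or contigs that are not sense intronic. In the first intron of Kcnd2, cut into 5 equal parts, the depth of sense intronic contigs is 167 aligned bases per base in the first part and 37.3 in the last.

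Within long introns, coverage was higher towards the 5′ end. In 765 introns of 100 kb or more from 499 hosts, cut into 10 equal parts, the pooled depth of sense intronic contigs was 8.33 aligned bases per base of intron in the first part, 13.5 in the second and 13.9 in the third, and then went down through 11.1 in the sixth and 7.99 in the eighth to 2.92 in the tenth. Contigs covered 59.0% of the third part and 27.8% of the tenth. The 5 parts on the 5′ side held more than the 5 on the 3′ side in 677 of the 765 introns (88.5%), with pooled depths of 12.2 and 7.50, a ratio of 1.63. Contigs that touch an exon are set apart by the rule and do not count in the first and last parts. With every contig of the same strand counted, whatever its class or length, 718 of the 765 introns (93.9%) were higher on the 5′ side, and the ratio was 1.86. The aligned bases of a contig were spread evenly along it, so exon reads of contigs that touch an exon can count as intron. Without the first and last parts, the ratio was 1.67 with all contigs and 1.53 with sense intronic contigs.

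**Figure D5:**
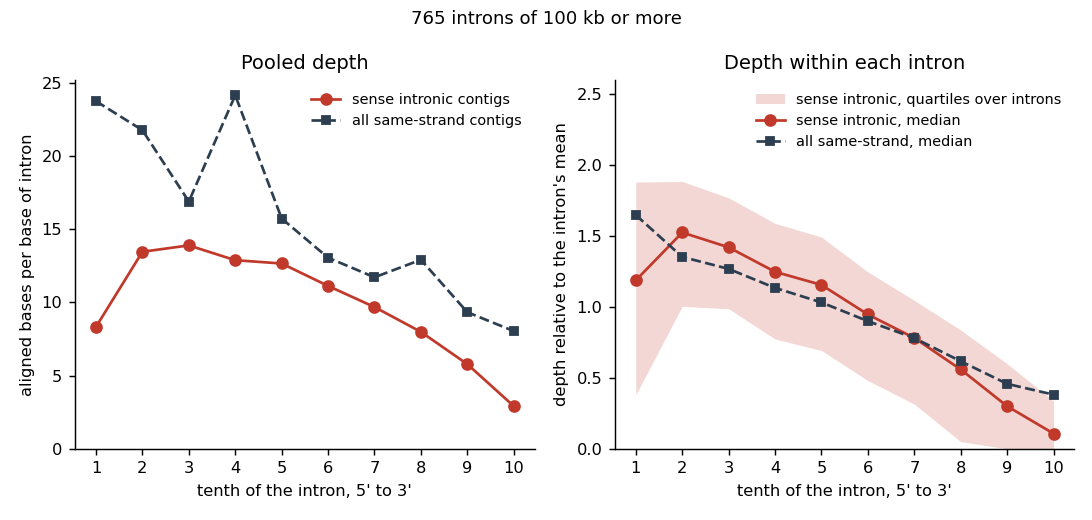
Depth across 765 introns of 100 kb or more, in 10 equal parts of the intron from 5′ to 3′, for sense intronic contigs (red) and for all contigs of the same strand (dark, dashed). Left, aligned bases per base pooled over introns; right, depth relative to the mean of the same intron, with the median and, for sense intronic contigs, the quartiles over introns. The median relative depth of sense intronic contigs is 1.52 in the second part and 0.107 in the last. The pooled line of all contigs is uneven, with 24.1 in the fourth part against 16.9 in the third.

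The difference was seen in hosts of either level and in first and later introns. The ratio of the 5′ to the 3′ side was 1.57 in 454 introns of hosts at 1 RPKM or more and 2.17 in 311 introns of hosts under 1 RPKM. It was 1.58 in 227 first introns and 1.67 in 538 later introns. By intron length it was 1.40 in 3109 introns of 30 kb to under 100 kb, 1.58 in 592 introns of 100 kb to under 200 kb and 1.68 in 173 introns of 200 kb or more. Without the 10 introns that held the most aligned bases it was 1.68. These ratios were not tested against each other, and neighbouring introns of a gene share its transcripts.

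The 10 introns with the most aligned bases in sense intronic contigs varied in their course. Depth here counts these contigs alone, so a low part can hold shorter contigs or contigs that touch an exon. In Kcnip4, no sense intronic contig lay between 224 kb and 307 kb from the 5′ end of the gene, around the exon at 239 kb. In intron 1 of Kcnd2, 497 kb long, the depth in 5 successive equal parts was 167, 176, 133, 95.0 and 37.3. In intron 4 of Rora, 531 kb long, it was 101, 90.8, 92.6, 62.2 and 21.7. In intron 1 of Kcnip4 it stayed between 161 and 170.1 over the first 4 parts and was 109.5 in the last. In intron 2 of Kirrel3 it was 71.2, 138, 105, 74.6 and 23.1, with the first part low. Intron 2 of Kcnip4 had 18.8 in the first part, 127 in the third and 44.1 in the last, and intron 1 of Pcdh9 had 34.5, 59.7 and 40.9 there, so the first part was below the last in both. In intron 1 of Rbfox1 the depth was 33.9 in the first part, 201 in the third and 27.8 in the last. Intron 1 of Negr1 had 61.6 in the first part and 7.95 in the last, and intron 2 of Fam155a had 53.9 and 12.4. In intron 1 of Cadm2, a synaptic adhesion gene, it was 27.0, 16.3, 32.0, 22.8 and 20.2, without a steady course. The signal of whole contigs by position showed little of this, with medians of 0.138, 0.139 and 0.127 in the 5′, middle and 3′ parts when each intron of any length was cut into 3.

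First introns held somewhat more than their length. They contained 18482 contigs (24.0%) and 26.3% of the contig length, against 20.1% of the intron length of the hosts. Last introns contained 4661 contigs (6.06%) and 5.45% of the contig length, against 6.79% of the intron length. The median signal was 0.141 in first introns, 0.138 in the second, 0.137 in the third and 0.130 in the last.

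In introns with at least 20 spliced reads, the depth of sense intronic contigs was mostly small beside the number of reads spliced across the same intron. Of 19435 introns with a contig, the 12747 used had at least 20 reads spliced exactly from end to end. Introns with fewer spliced reads, in which the ratio can be higher, are left out, and this lowers the medians below. Aligned bases of sense intronic contigs alone were averaged over the intron. Shorter contigs and those that touch an exon were not counted, so the depth is a minimum. This depth had a median of 3.12 aligned bases per base and the spliced reads a median of 158, both over the 2 replicates together. The ratio had a median of 1.77% (quartiles 0.771% and 4.00%). For the 367 such introns of 100 kb or more it was 3.70% (quartiles 1.41% and 8.00%), while the profile above had 765 introns of that length with a contig. In intron 1 of Kcnd2 the depth was 122, against 1117 and 939 spliced reads in the 2 replicates, a ratio of 5.91%. In 5 introns of Cntnap2 the ratio was 0.603% to 2.15%. Some long introns had far higher ratios, such as intron 3 of Cacna1c, with a depth of 40.5 against 19 and 29 spliced reads, a ratio of 84.4%, and intron 1 of Pcdh9, with 52.0 against 62 and 41 spliced reads, a ratio of 50.5%. Reads spliced from or to other sites within these introns are not in the ratio.

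A few contigs stood far above the others of their gene. Among the 69196 contigs of hosts with 5 or more, 35 (0.0506%) in 34 genes had at least 10 times the median signal of their host. The highest signal, 324, belonged to a contig of 3.11 kb in intron 2 of Gphn, the gene of the inhibitory synapse scaffold gephyrin (mm9 chromosome 12, 79451326 to 79454430), whose 91 contigs had a median of 0.174. It held 48.7 Mb of aligned bases. A contig of 1.51 kb in intron 5 of Camk1d, a calmodulin-dependent kinase gene, had a signal of 142, and one of 1.03 kb in intron 6 of Ddah1, which encodes an enzyme that breaks down methylated arginine, had 35.8. The host medians were 0.154 for Camk1d and 0.073 for Ddah1. The next were Traf5 (34.3, the single contig of that gene), Chd9 (13.5), Cd80 (11.0), Lpp (10.1), Ift80 (9.91), Lrp1b (8.74) and Lyrm4 (8.65). The assembled exons inside the Ddah1 contig, which the authors also quantified, had 34.8 and 37.8 RPKM in the 2 replicates. Those inside the Gphn contig had 5.87 and 3.43 RPKM and those inside the Camk1d contig 1.17 and 0.411 RPKM, far under the contig signal. At the low end, contigs in Sla, Cacng3 and Grm8 had signals of 0.028, 0.028 and 0.029.

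Splice junctions ending inside the contigs were common but mostly rested on single reads. Of the 76955 contigs, 28566 (37.1%) held the end of at least 1 junction of their strand, with 78863 and 67462 reads in the 2 replicates. With the reads of 1 replicate number alone, the share was 26.7% for number 1 and 22.6% for number 2. Of the 68469 junctions concerned, 55322 had 1 read in all, and only 780 contigs (1.01%) held an end of a junction with 10 or more reads. Pairs of a contig and a junction of 10 or more reads with 1 end inside it numbered 1099, in 742 contigs of 607 genes, and in 799 (72.7%) the far end was an annotated exon boundary. Among all 53704 such pairs, whatever the reads, that share was 17.5%. The 742 contigs had a median signal of 0.283 and a median length of 3454 bases.

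The contigs with the most junction reads held them in both replicates. A contig of 1.90 kb in intron 1 of Arhgef33, which encodes a guanine nucleotide exchange factor (chromosome 17, 80710896 to 80712796), held junction ends with 1433 and 1228 reads, of which a single junction had 935 and 802. One in intron 1 of Ctbp1, a transcriptional corepressor gene, held 1313 and 1135 reads, with 668 and 553 on its main junction. One in intron 1 of Hpcal1, a neuronal calcium sensor gene, held 1237 and 1113 reads, with 667 and 545. In intron 21 of Rims2, the gene of a presynaptic active zone scaffold, a contig held 830 and 718 reads. A contig of 15.7 kb in intron 1 of Mdga2, an adhesion gene, held 1188 and 1268 reads and its strongest junction had 239 and 232. Gm38393, Syt11 (a synaptotagmin), Fam49b, Efl1 and Chd9 completed the 10, with 954 to 1058 reads over both replicates. Chd9 differed most between them, with 577 and 377 reads.

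Replicate values exist for those contigs in which the authors assembled transcripts. Assembled exons lay wholly inside 17998 contigs (23.4%), and in 14668 of these all of them belonged to transcripts with a single exon. In 17754 contigs both replicates had a value above 0, and 3597 of these (20.3%) differed by 2-fold or more. The median difference of either sign was 0.43 on the log2 scale. Averaged over a gene with 10 or more such contigs, the replicates were closer, with a median difference of 0.17 in 412 hosts, against 0.14 for the exon-based level of the same genes. Assembled values were lower in replicate number 2 in 255 of the 412 (61.9%), by a median log2 ratio of -0.08, and exon-based levels had a median of 0.00. For Kcnip4 they were 0.278 and 0.226 RPKM, and for Rora 0.271 and 0.248 RPKM. The replicate numbers of the mm9 tables name no library.

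Gene groups differed in how many of their members were hosts, along with their gene lengths. All 36 measured genes of a list of long neuronal adhesion genes were hosts, with a median of 158 contigs, a median length of 1095 kb and a median level of 1.61 RPKM. Hosts were 19 of 25 glutamate receptor genes, 28 of 34 voltage-gated ion channel genes, 15 of 19 Purkinje neuron genes and 11 of 16 GABA receptor genes, with median lengths of 319 kb, 235 kb, 338 kb and 91.1 kb. Hosts were 22 of 49 genes of splicing and RNA-binding proteins (32.8 kb), 6 of 21 granule neuron genes (18.1 kb), 6 of 20 glial genes (15.1 kb), 4 of 15 glycolysis genes (14.2 kb) and 1 of 8 imprinted and non-coding genes (28.6 kb). The list of imprinted and non-coding genes had 16 names, of which only 8 were measured, so its share is incomplete. Over all 20523 genes the share was 33.7%, or 33.3% with the genes beyond the last contig. Among genes at 1 RPKM or more it was 53.1%, and among those also of 100 kb or more it was 98.9%. All 36 adhesion genes were of 100 kb or more, and 22 of them were at 1 RPKM or more. All 21 granule neuron genes, 18 of 20 glial genes and all 15 glycolysis genes were at 1 RPKM or more. The glycolysis genes had the highest median level of these lists, at 38.1 RPKM, and the granule neuron genes had 13.0 RPKM. The lists were drawn up with earlier results of these data known and are described only.

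Among glutamate receptor genes, Grm7, a metabotropic receptor gene, held 168 contigs at 1.73 and 2.36 RPKM, and Grid1 held 146 at 2.08 and 2.46 RPKM. Grin1 (28.0 kb), which encodes the obligatory NMDA receptor subunit, held none. Length did not sort all of these genes, since Grm4 (91.0 kb) held none at 29.1 and 24.0 RPKM and Grin2d (39.0 kb) held 7. Among GABA receptor genes, Gabrb1 held 93 contigs at only 0.75 and 0.86 RPKM, and Gabra6, with 36.1 and 31.9 RPKM and a length of 14.6 kb, held none. Cacna2d3, an auxiliary calcium channel subunit gene, held 164 contigs, Kcnma1, the BK channel gene, held 103 and Cacna2d1 held 90. Among Purkinje neuron genes the reelin adaptor gene Dab1 held 217 contigs over 61.2% of its introns, while Pcp2, 2.2 kb long, held none. In the granule neuron list, Fstl5 held 104 contigs, Cadps2, which serves dense-core vesicle release, 75, and Reln, the gene of the secreted guidance protein reelin, 43. Among glial genes, the glutamate transporter genes Slc1a2 and Slc1a3 held 9 each. Of the RNA-binding proteins Celf2 held 51, Elavl2 26 and Khdrbs2 26. Among glycolysis genes Pfkp held 5 and Hk1 held 2, and of the last list the antisense transcript gene Airn held 4.

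The hosts with the highest levels held from 1 to 34 contigs, against a median of 3 over all hosts. Lars2, a mitochondrial leucyl-tRNA synthetase gene, had 199.2 and 199.5 RPKM, the highest of any host, with 15 contigs and a median signal of 0.108. Gnas, the gene of the stimulatory G protein alpha subunit, had 154 and 169.8 RPKM and 2 contigs. App, the amyloid precursor gene, 219 kb long, had 78.6 and 75.6 RPKM with 18 contigs over 45.4% of its introns, and Rtn1, a reticulon gene, had 68.4 and 71.6 RPKM with 34 contigs over 70.3%. Mdh1, Atp1b1 and Dnm1 held 1 contig each, Sparcl1 held 2 and Sparc held 5. At the other end of length, the 5 shortest hosts measured 3.38 kb to 3.79 kb and held 1 contig each.

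The longest hosts were not always covered. Gm20388, whose annotated span of 4435 kb is the longest of the table's hosts, held 148 contigs over 7.95% of its introns. Fgfr2, a growth factor receptor gene with a span of 3009 kb here, held 70 over 7.13%, and Ptprd, a receptor phosphatase gene, held 176 over 21.2%. Fhit, 1612 kb long and at 0.382 and 0.318 RPKM, held 10 contigs over 0.735%, although Csmd1, of about the same length and at 0.345 and 0.430 RPKM, held 257 over 44.1%. These spans are those of the Ensembl 65 file and can join transcripts that lie far apart.

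Annotated retained-intron transcripts were as frequent in hosts as in other genes. Among protein-coding genes with at least 1 TPM in both mm10 libraries, 2592 of 6214 hosts (41.7%) and 2206 of 5309 genes without a contig (41.6%) had such a transcript. In these genes its median share of the gene's TPM was 8.37% and 7.60% in hosts (replicates 1 and 2), against 13.5% and 13.2% in genes without a contig. It reached 20% or more in both replicates in 22.8% of these hosts and in 35.8% of these genes without a contig. The annotated transcripts span introns of any length, and gene length and level also differ between the groups. The part of these in the difference was not tested. Introns here are the gaps between all exons of a gene, so an intron kept in a transcript of that annotation counts as exon. Contigs that touch it are exonic under the rule. Whether sense intronic contigs come from kept introns was therefore not tested by these shares.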

How the data were processed

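Polyadenylated RNA of 2 cerebellum libraries was sequenced strand-specifically. The authors deposited a contig table on mm9 with a coverage signal, the aligned bases and an irreproducibility value (a fraction) per contig, pooled over both replicates; a junction table with read counts per replicate number; and RPKM per replicate number for Ensembl 65 genes and exons and for assembled exons and transcripts, per the file headers and attribute names. They also deposited TPM and expected counts per gene and transcript on mm10 with GENCODE M4, joined here by gene identifier without version. The aligner and the contig caller are not named in the labels or file headers used here.

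Contigs were classed with bedtools 2.31.1 (any overlap of 1 base, by strand) in Python 3.11.15 with pandas 2.3.3, numpy 2.4.6 and scipy 1.17.1. Positions are printed from 1. Introns are the gaps between all exons of a gene. A contig was placed by its midpoint. Symbols were matched by identifier for 30302 of 34653 autosomal genes (87.4%). Gene and transcript classes came from GENCODE M21 by identifier. No mm9 genome was used, so no contig sequence is shown, and 0 columns of unmapped samples were left aside. Class, host, position and junction steps were tested on simulated data. Named genes are those with the most, longest, highest or most spliced contigs, and the highest, longest and shortest hosts. Up to 3 genes per list and the contigs nearest the length minimum are also named. Mtcl1, Gabra5, Pcdh9, Cadm2, Fam155a, Grin1, Grm4, Grin2d, Gabra6, Pcp2 and the contigs of lowest signal were chosen after their values were seen. So were the alternatives for the last contig and the intron profile. The members and lists were chosen with earlier results of these data known. A few genes picked in this way are left unreported. Alternatives to each main choice were computed. Depth is in the report; intervals cover counting error only, since reads carry no molecular identifiers.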

Additional observations from a re-analysis of the deposited data

How the results depend on the processing

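Of 94 values recomputed under alternatives, 52 stayed and 42 moved. To stay, a value had to lie within its counting or replicate spread, or within 1.5 times for counts and for the depth ratio. A rho had to be unchanged as rounded here. A change of direction could be called only for the rho with gene length and the ratio of the 5′ to the 3′ side. Of those values 0 changed direction. A minimum of 500 bases gave 163424 contigs, medians of 950 bases, a signal of 0.098 and 4536 aligned bases, hosts with medians of 43.1 kb and 1.29 RPKM, a rho of 0.74 between contigs and gene length, and 24.2% with a junction end inside. A minimum of 2000 bases gave 32389 contigs, 3288 bases, 0.186, 30679 aligned bases, 67.9 kb, 2.08 RPKM, 96.2% of expressed genes of 100 kb or more as hosts, 31.3% of contigs in the 5′ part of an intron cut into 3, against 30.7%, and 55.2% with a junction end. At 5000 bases or more from an exon there were 44392 contigs in 3177 hosts, with 1817 bases, 0.136, 12229 aligned bases, 106 kb, 1.81 RPKM, 91.7% of long expressed genes, a rho of 0.70, 27.5% in the 5′ part and 36.0% with a junction end. With protein-coding hosts only, the values were 11806 aligned bases, 54.6 kb, 1.83 RPKM and 98.0%. These follow from which contigs or hosts each choice keeps. Requiring the contig to lie within the span or an irreproducibility value up to 0.1 removed no contig, so 22 of the 52 values could not differ. Requiring no exon on either strand moved no value past its spread. Leaving out 1 replicate number gave a median host level of 1.64 to 1.68 RPKM, 22.6% to 26.7% with a junction end, 67462 to 78863 junction reads against 146325, and 98.9% to 99.0% of long expressed genes. In mm10 TPM the median host level was 14.7. TPM is another unit than RPKM, and the junction reads of 1 replicate number are a part of the total, so the move of these values says little. Of genes of 100 kb or more, 94.7% of those at 0.1 RPKM or more were hosts. Of those at 1 RPKM or more, 97.1% were hosts with genes beyond the last contig kept, against 98.9% without them. Only 1.01% of contigs had a junction of 10 reads. With all contigs of the strand, 93.9% of long introns were higher in the 5′ part. No paired analysis was possible because there is only 1 group. Of the sense intronic contigs of any length, 21.9% reached the minimum, so an intron without a long contig is not shown to be without RNA.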
